A study of Homo sapiens with 8 samples.

Results

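WNK4, WNK1, OXSR1, STK39, AGT, AGTR1 and ACE encode 4 kinases of a cascade for ion transport and 3 components of the renin-angiotensin system. These 7 genes, of 20044 named on the array, were chosen by symbol with their knockdown differences known, because WNK4 and AGTR1 differed from control in opposite directions in 2 liver cancer cell lines. The gene knocked down by short hairpin RNA was SMARCB1, whose product belongs to the SWI/SNF (BAF) complexes that remodel chromatin. The 8 Illumina arrays fall into 4 groups of 2, which are SK-Hep1 control (titles shcon 1 and 2), SK-Hep1 SMARCB1 knockdown (11 and 12), Huh7 control (GFP Con 1 and 2) and Huh7 SMARCB1 knockdown (3 and 4). Both are established lines: SK-Hep1 came from a liver adenocarcinoma and is known for endothelial features, while Huh7, a hepatocellular carcinoma line, retains hepatocyte traits. Cells carrying the hairpins were selected with puromycin at 1.25 µg/mL. The labels name GFP only for the Huh7 controls, put the number 11 into both Huh7 knockdown titles, and do not say whether 11 and 12 are different hairpins. The labels do not say whether the 2 arrays of a group are separate cultures. The p-values below therefore reflect array-to-array spread alone, and that spread may be technical.

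WNK kinases are serine/threonine kinases whose catalytic lysine sits at an unusual position, and they sense chloride and cell volume. They phosphorylate and activate the kinases SPAK (STK39) and OSR1 (OXSR1), which in turn phosphorylate the cation-chloride cotransporters of the SLC12 family. Mutations of WNK1 and WNK4 cause a familial form of hypertension with high potassium, through salt reabsorption in the distal kidney tubule. In the renin-angiotensin system the liver secretes angiotensinogen (AGT), renin cleaves it to angiotensin I, and angiotensin-converting enzyme (ACE) turns that into angiotensin II, which acts on the type 1 receptor (AGTR1) to raise blood pressure and salt retention.

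RefSeq promoter sequences (GRCh38.p14) were matched for 5 of the 7 genes, namely WNK1, OXSR1, STK39, AGT and ACE, the last with 2 start sites. WNK4 and AGTR1 had no entry. The 250 bases before the start site of AGT (chr1:230714123-230714372, minus strand) and of STK39 (chr2:168247596-168247845, minus strand) are shown because these genes were the 2 members other than WNK4 and AGTR1 with a large difference in Huh7. Capitals mark matches on either strand to the TATA box TATAAA, the GC box GGGCGG, the AP-1 motif TGANTCA and the cAMP response element TGACGTCA.
AGT: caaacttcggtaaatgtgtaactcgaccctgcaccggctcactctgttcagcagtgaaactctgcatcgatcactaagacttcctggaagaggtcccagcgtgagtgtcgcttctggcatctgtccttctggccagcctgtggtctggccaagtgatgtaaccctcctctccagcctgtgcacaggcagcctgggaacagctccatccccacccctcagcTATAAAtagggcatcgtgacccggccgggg
STK39: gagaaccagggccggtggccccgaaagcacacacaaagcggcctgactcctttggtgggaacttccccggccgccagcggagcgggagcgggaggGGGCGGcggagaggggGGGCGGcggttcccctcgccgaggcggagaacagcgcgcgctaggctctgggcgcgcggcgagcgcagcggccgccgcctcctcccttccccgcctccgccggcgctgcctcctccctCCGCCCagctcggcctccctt

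The AGT window holds 1 TATA box, whose first base lies 30 bases before the start site, and no GC box, and its GC content is 57.2%. The STK39 window has a GC content of 76.4%, 3 GC boxes and no TATA box. Over 35116 RefSeq promoters, whose median GC content in the same window is 58%, TATAAA occurs in 10.7%, GGGCGG in 42.6%, TGANTCA in 6.57% and TGACGTCA in 1.65%. The window of OXSR1 (chr3:38165287-38165536, plus strand) holds 1 match to TGACGTCA, 49 bases before the start site, and none of the other 3 motifs. The WNK1 window holds 2 GC boxes, and the windows of the 2 ACE start sites hold 4 and 0. The ACE window with 4 GC boxes also holds 1 match to TATAAA, whose first base lies 31 bases before the start site. No window holds TGANTCA. These matches describe the letters only.

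The values are log2 intensities per probe in the authors' deposited table. A level of 6.97, the 95th percentile of 616 probes for gene families foreign to liver (beta-defensins, keratin-associated proteins and the chemosensory receptors of nose and tongue), was taken as background, and 12728 genes with a brighter probe were tested, each by its brightest probe. Differences in level between SK-Hep1 and Huh7 are nearly missing from the deposited values. For 0 of the 12728 genes did the 2 line means, over 4 arrays each, lie more than 0.5 apart. The mean of WNK4 was 8.77 over the SK-Hep1 arrays and 8.73 over the Huh7 arrays, and that of AGTR1 was 9.03 and 9.05. A level in one line therefore cannot be set against a level in the other, and only differences within a line are compared. For the same reason these values do not show whether a line expresses a gene at all. The step that made the line levels nearly equal is not known. Whether it also changed the size of differences within a line was not tested. The hepatocyte marker ALB read 11.2 to 11.6 over all 8 arrays, and 9 of 9 hepatocyte markers, 2 of 7 endothelial markers and 0 of 5 markers of the distal kidney tubule on the array were above background. The targeted gene SMARCB1 was lower on all knockdown arrays, reading 10.68 and 10.61 in SK-Hep1 controls, 9.30 and 9.67 on knockdown arrays 11 and 12, 10.84 and 10.94 in Huh7 controls, and 9.22 and 9.27 after knockdown. In a bulk culture fewer expressing cells and less RNA per cell cannot be told apart.

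**Figure D1:**
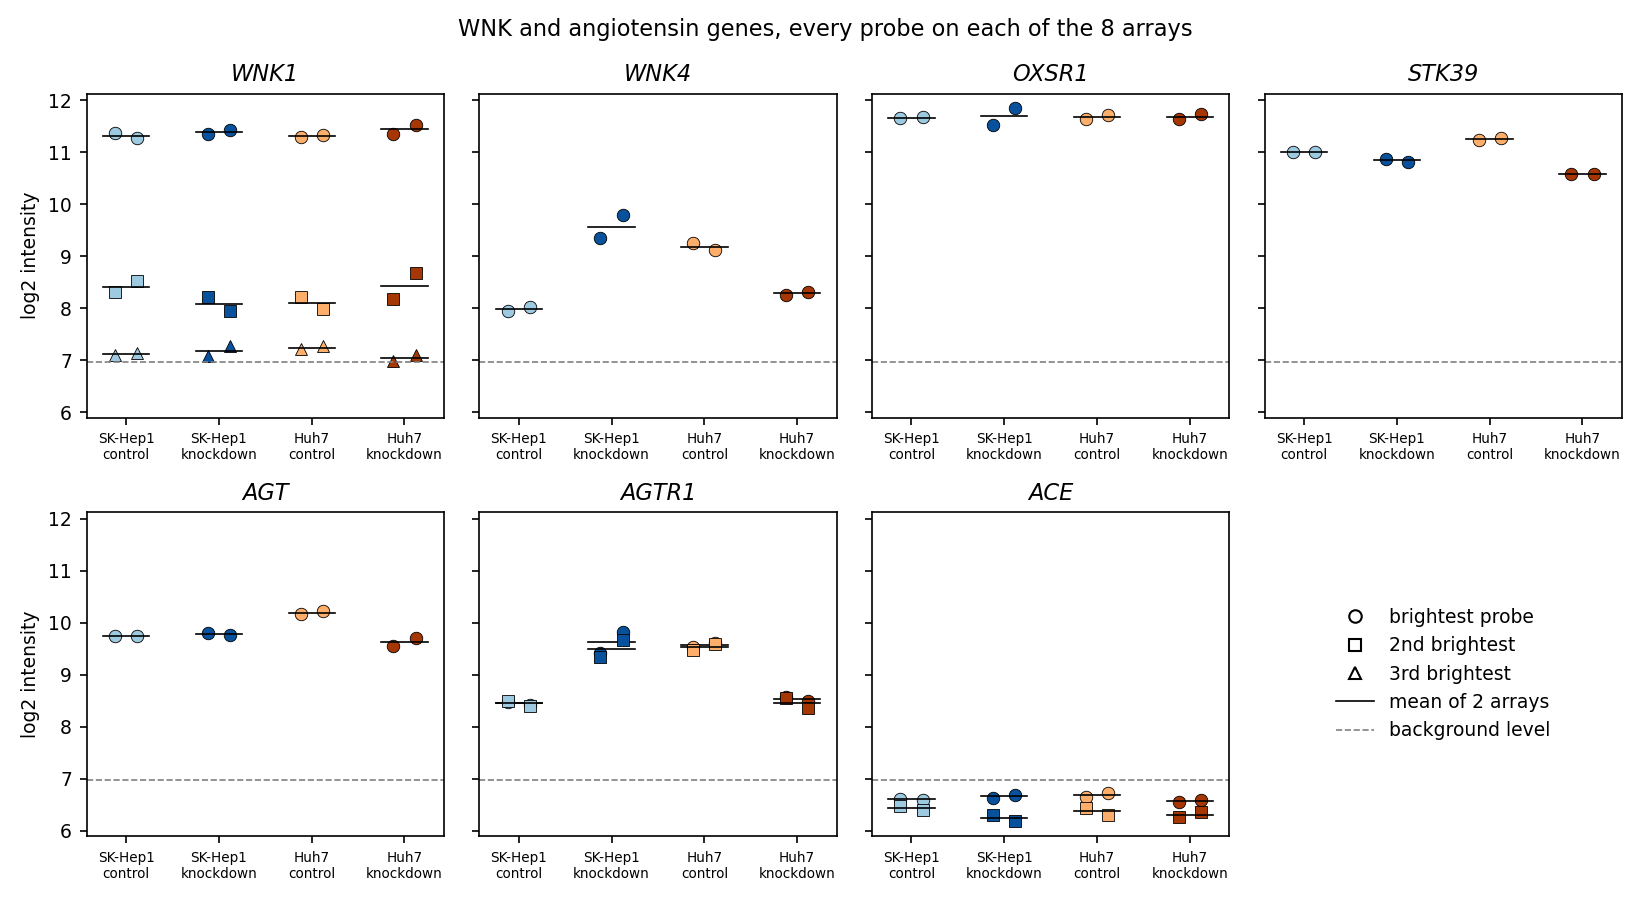
Log2 intensity of every probe of the 7 genes on each of the 8 arrays, by group, with bars for the mean of 2 arrays and a dashed line at the background level of 6.97. WNK4 and AGTR1 stand above their controls in SK-Hep1 knockdown cells and below them in Huh7 knockdown cells, and both ACE probes lie under the background level.

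WNK4 encodes the WNK family member best known from the distal kidney tubule, where it regulates the sodium chloride cotransporter. In SK-Hep1 its single probe, ILMN_1669114, read 7.94 and 8.03 on the control arrays and 9.35 and 9.78 on knockdown arrays 11 and 12. The Huh7 controls read 9.25 and 9.12, and the Huh7 knockdown arrays 8.25 and 8.32. The groups did not overlap in either line, and the direction turned between them. The difference, knockdown minus control, was 1.58 ± 0.121 (SE from the fit, n = 2 arrays per group) in SK-Hep1, a 3.00-fold higher intensity, and -0.90 ± 0.121 in Huh7, a 1.87-fold lower one. Here and below, the SE rests on a single spread per gene shared by all 4 groups. It is therefore equal in both lines and does not show how far apart the arrays of a single group lay. These differences ranked 11 in SK-Hep1 and 258 in Huh7 by size among the 12728 genes tested. They chose the gene and are given as a description, without a p-value.

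The 2 SK-Hep1 knockdown arrays differed from each other by 0.43 for WNK4, against 0.09 between the controls. The SK-Hep1 difference was 1.37 from array 11 alone and 1.80 from array 12 alone. Array 12, the higher of the pair for WNK4, also had the higher SMARCB1 signal (9.67, against 9.30 on array 11). In Huh7, leaving out 1 array moved the WNK4 difference only between -0.97 and -0.84.

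WNK1 is the broadly expressed member of the family and acts upstream of SPAK and OSR1. Its brightest probe, ILMN_1876924, read 11.36 and 11.26 in SK-Hep1 controls, 11.36 and 11.42 after knockdown, 11.29 and 11.32 in Huh7 controls, and 11.35 and 11.52 after knockdown. The SK-Hep1 groups overlapped, and the differences were 0.08 ± 0.0787 in SK-Hep1 and 0.13 ± 0.0787 in Huh7. The other WNK1 probes went different ways. ILMN_1753165, annotated to the same transcript as the brightest, was at -0.33 in SK-Hep1 and 0.32 in Huh7, and its 2 Huh7 knockdown arrays were 0.51 apart. ILMN_1788711, annotated to another transcript and close to background at a mean of 7.15, was at 0.06 and -0.19. With the 3 probes averaged the SK-Hep1 difference of WNK1 was -0.06, so no direction can be given for this gene.

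OXSR1 encodes OSR1, 1 of the 2 kinases that WNK kinases activate. Its probe read 11.66 and 11.67 in SK-Hep1 controls, 11.53 and 11.84 after knockdown, 11.64 and 11.71 in Huh7 controls, and 11.64 and 11.73 after knockdown. Groups overlapped in both lines, with differences of 0.02 ± 0.0963 and 0.01 ± 0.0963. The SK-Hep1 value was -0.13 from knockdown array 11 alone and 0.18 from array 12 alone, so its sign rested on which array was used.

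STK39 encodes SPAK, the close relative of OSR1. The SK-Hep1 controls read 11.01 and 11.002, and the knockdown arrays of that line 10.87 and 10.82. The Huh7 controls read 11.22 and 11.28, and the knockdown arrays 10.59 and 10.58. Both knockdown arrays lay below both controls in each line. The difference was -0.16 ± 0.0653 in SK-Hep1 and -0.67 ± 0.0653 in Huh7, the latter a 1.59-fold lower intensity. Of the 6 members above background, STK39 alone lay in the same direction in both lines without overlap on its brightest probe. How many of all genes tested did so was not counted, so this is a description of the members only. By size among the genes tested, the STK39 difference ranked 4713 in SK-Hep1 and 603 in Huh7. OXSR1, the other kinase of this step, had a Huh7 difference of 0.01.

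AGT encodes angiotensinogen, the substrate of renin, made mainly by hepatocytes. Its probe read 9.73 and 9.75 in SK-Hep1 controls and 9.80 and 9.76 after knockdown. The Huh7 controls read 10.17 and 10.22 and the knockdown arrays 9.55 and 9.70. The Huh7 groups were well apart, with a difference of -0.57 ± 0.0732, a 1.48-fold lower intensity. In SK-Hep1 the knockdown arrays were both above the controls by a small margin, with a difference of 0.04 ± 0.0732. Since the line means are nearly equal in the deposited values, a difference near 0 in SK-Hep1 cannot be told apart from a gene that SK-Hep1 does not express. The mean of the 9 hepatocyte markers was 10.6 on both Huh7 control arrays and 10.5 on both knockdown arrays. Behind this mean single markers lay far apart in Huh7, with APOA1 at 0.99, APOA2 at -0.98, AHSG at -0.71 and ALB at 0.01, and their part in the AGT value was not tested.

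AGTR1 encodes the type 1 angiotensin II receptor, through which most known effects of angiotensin II run. The brightest probe, ILMN_2341343, read 8.48 and 8.42 in SK-Hep1 controls and 9.42 and 9.82 on knockdown arrays 11 and 12. The Huh7 controls read 9.54 and 9.62 and the knockdown arrays 8.57 and 8.50. As with WNK4, the knockdown arrays were above both controls in SK-Hep1 and below both in Huh7. The differences were 1.17 ± 0.112 in SK-Hep1, a 2.25-fold higher intensity, and -1.04 ± 0.112 in Huh7, a 2.06-fold lower one, ranking 36 and 150 among the 12728 genes. They too chose the gene and are given without a p-value. A different probe, ILMN_1814327, annotated to another AGTR1 transcript, was at 1.05 and -1.08. The SK-Hep1 difference on the brightest probe was 0.97 from knockdown array 11 alone and 1.37 from array 12 alone.

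ACE encodes angiotensin-converting enzyme. Its probes were under the background level on average, with means of 6.63 and 6.34 over the 8 arrays, and ACE was not tested. The brighter probe read 6.61 and 6.59 in SK-Hep1 controls, 6.64 and 6.68 after knockdown, 6.66 and 6.72 in Huh7 controls, and 6.55 and 6.59 after knockdown. On this probe the groups did not overlap in either line, with differences of 0.06 in SK-Hep1 and -0.12 in Huh7. The dimmer probe was at -0.19 in SK-Hep1, without overlap, and at -0.07 in Huh7, with overlap. At a signal under the background level these small differences are given as a description, and no direction is read from them.

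**Figure D2:**
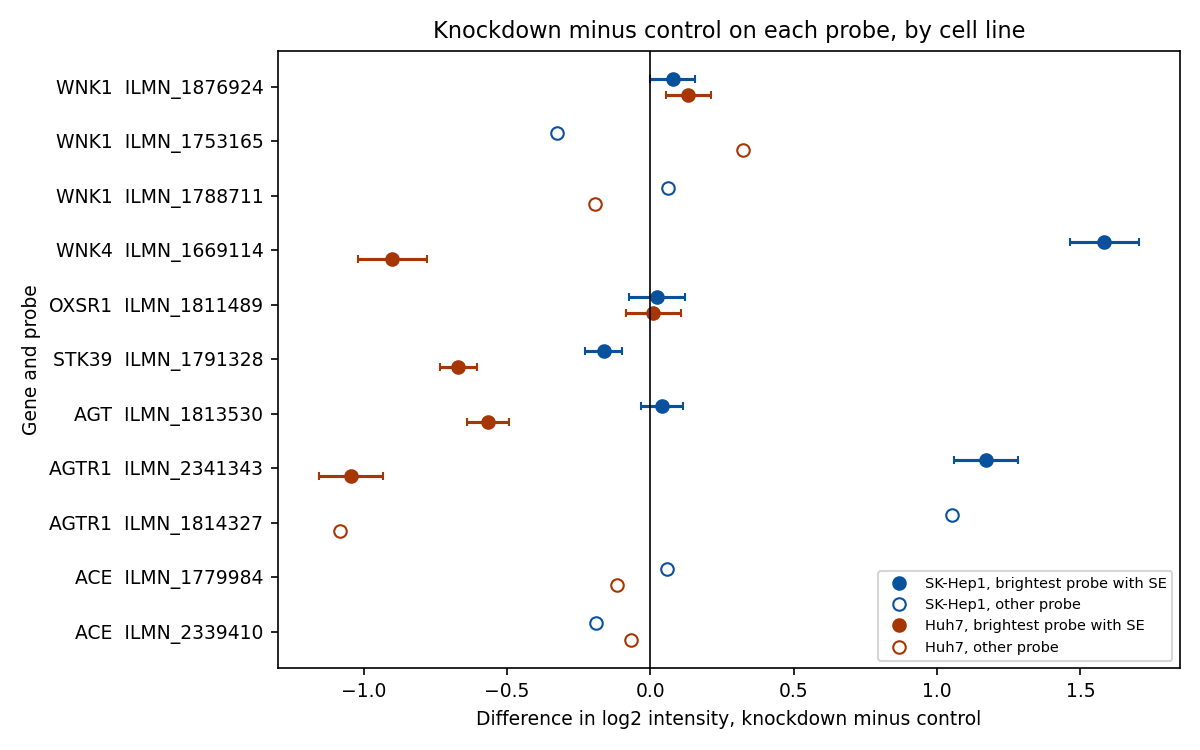
Difference in log2 intensity, knockdown minus control, on each probe of the 7 genes in SK-Hep1 (blue) and Huh7 (red). Filled points are the brightest probes with bars of 1 SE from the fit over all genes, and open points are other probes. WNK4 and both AGTR1 probes lie on opposite sides of 0 in the lines, while the 3 WNK1 probes differ in direction.

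Across the array, 16.2% of the genes tested passed the threshold of 0.05 on the adjusted p (limma, Benjamini-Hochberg over 12728 genes) in SK-Hep1, 8.04% as higher and 8.19% as lower. In Huh7 38% passed, 18.9% as higher and 19% as lower, and 30.5% passed for the difference between the lines. The members were part of this fit, but they were chosen on these contrasts, so no p-value or count of calls is given for them. Across all genes tested, 30 were at least 0.5 higher in SK-Hep1 and at least 0.5 lower in Huh7, 23 were the reverse, and 80 differed by that size in the same direction in both lines. At a size of 1 in both lines the first group held 3 genes, AGTR1, CD14 and LFNG, and the reverse group 2.

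The genes with values most like those of WNK4 and AGTR1 over the 8 arrays were found by the root mean square distance between values, each taken minus the mean of the control arrays of its line. WNK4 and AGTR1 were chosen for their opposite directions in the lines, and the distance was taken on the same values. Their nearness to each other therefore partly restates that choice and is not separate evidence of a link. The gene nearest to WNK4 was AGTR1, at a distance of 0.230 on the log2 scale. Next came SIRPA, a myeloid inhibitory receptor (0.301), the prohormone convertase chaperone gene SCG5 (0.316), the retinol dehydrogenase gene RDH10 (0.317) and LFNG, which modifies Notch receptors (0.325). For AGTR1 the order was LFNG (0.189), CD14, a co-receptor for bacterial lipopolysaccharide (0.227), WNK4 (0.230), the aldehyde oxidase gene AOX1 (0.249) and the interleukin subunit gene IL12A (0.250). The differences of LFNG were 1.17 in SK-Hep1 and -1.33 in Huh7, and those of CD14 were 1.04 and -1.07. SIRPA, SCG5 and RDH10 were near WNK4 mainly through SK-Hep1, with Huh7 differences of only -0.45, -0.35 and -0.37.

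CD14 was also 1 of the 5 immune cell markers on the array. Of these, 3 were above background, while the defining leukocyte marker PTPRC (mean 6.73) and the T cell marker CD3E (6.66) were under it. The mean of the 5 markers per array was 8.28 to 8.34 in SK-Hep1 controls, 8.59 to 8.69 after knockdown, 8.61 to 8.62 in Huh7 controls and 8.31 to 8.39 after knockdown. It lay in the same directions as WNK4 and AGTR1. CD14 itself, chosen above for its likeness to AGTR1, carried most of this, with CD68 at 0.61 in SK-Hep1 and -0.15 in Huh7 and LYZ at only 0.12 and -0.12. The 7 smooth muscle and stellate cell markers, 4 of them above background, had means of 7.51 to 7.56 in SK-Hep1 controls, 7.65 to 7.68 after knockdown, 7.37 to 7.39 in Huh7 controls and 7.74 to 7.79 after knockdown. These means were thus higher after knockdown in both lines, mainly through TAGLN (0.83 and 2.12). ACTA2 was at only 0.16 and 0.20 and RGS5 at 0.01 and 0.07, so this is no result for the markers as a group. The part of these markers in the values of WNK4 and AGTR1 was not tested.

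**Figure D3:**
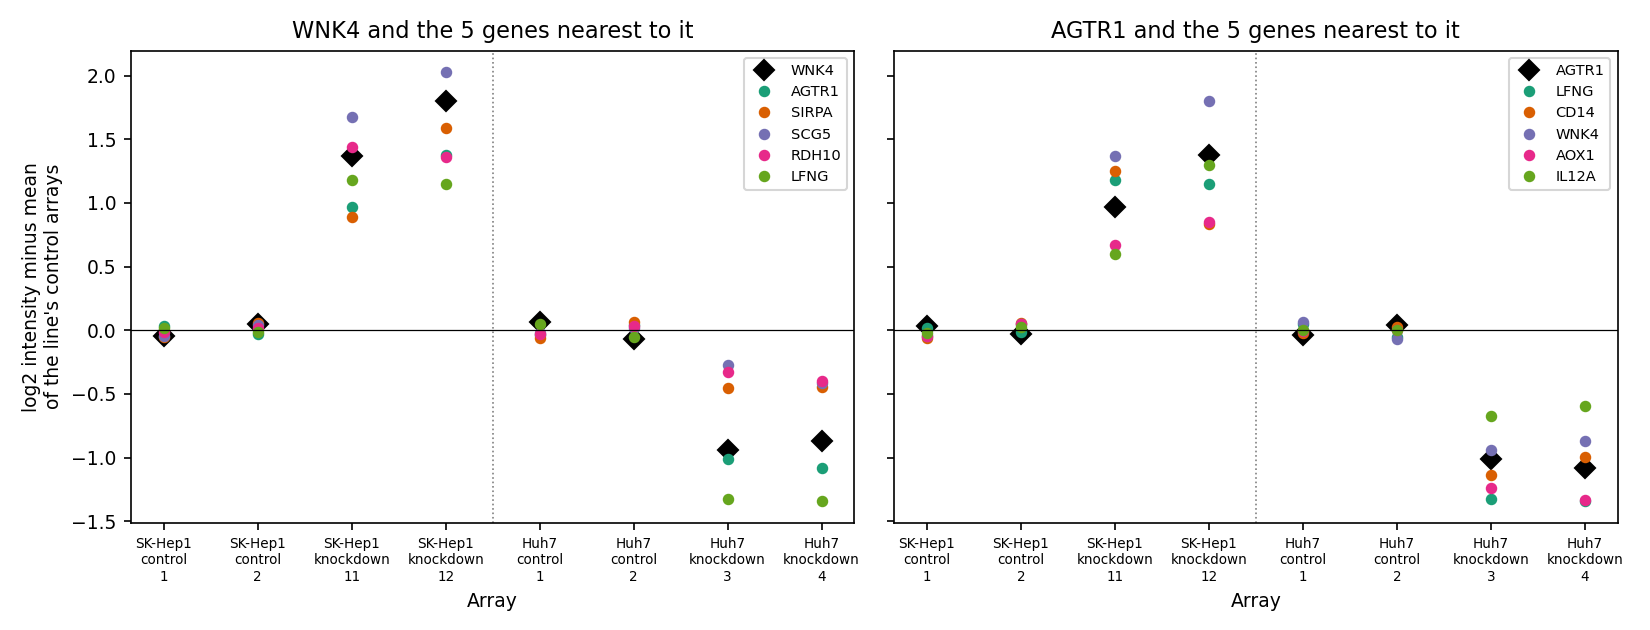
Log2 intensity on each of the 8 arrays minus the mean of the control arrays of the same line, for WNK4 (left) and AGTR1 (right, black diamonds) and the 5 genes nearest to each. The SK-Hep1 knockdown arrays lie above 0 and the Huh7 knockdown arrays below 0 for every gene shown, and array 12 stands higher than array 11 for WNK4 and AGTR1.

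The 4 gene lists that follow were chosen with earlier results of these data known. Their shares and p-values are therefore not independent of that choice. Among other genes of the WNK pathway and of chloride and bicarbonate transport, the shares called with the main filter were near those of all genes. Of 38 listed genes 24 were tested, and 3 rose and 0 fell in SK-Hep1 (12.5% called, against 16.2% of all genes), while 5 rose and 4 fell in Huh7 (37.5%, against 38%). With the 99th percentile of the background probes as filter, the SK-Hep1 count was 6, of which 5 rose and 1 fell. That filter left fewer genes, and the share of all genes called under it is not given here. Whether the list lay near that share under this filter therefore cannot be read from the count. The median difference was 0.04 in SK-Hep1 and 0.01 in Huh7, against -0.01 and 0.00 over all genes. LRRC8A, the essential subunit of the volume-regulated anion channel, rose in both lines, from 8.36 and 8.45 to 8.98 and 8.96 in SK-Hep1 (0.57 ± 0.0679, limma adjusted p = 0.000489) and from 8.45 and 8.39 to 9.02 and 8.99 in Huh7 (0.59, adjusted p = 0.000118). SLC4A4, a sodium bicarbonate cotransporter, rose by 0.53 and 0.46 (adjusted p = 0.00237 and 0.00185). No difference between the lines was detected for these 2 genes (adjusted p = 0.896 for LRRC8A and 0.682 for SLC4A4).

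SLC12A2, which encodes the cotransporter NKCC1 and is a target of SPAK and OSR1, rose in Huh7 from 8.51 and 8.47 to 9.49 and 9.61. Its difference there was 1.06 ± 0.0756 (adjusted p = 5.32e-06), with 0.83 on the other probe, and in SK-Hep1 it was 0.00. The Huh7 groups of SLC12A2 were far apart, and the lines differed by -1.06 (SK-Hep1 minus Huh7, adjusted p = 9.59e-05). PPP1R1A, an inhibitor of protein phosphatase, fell by 0.59 in Huh7 (adjusted p = 0.000142), and WNK2, another WNK kinase with a dim probe, by 0.53 (adjusted p = 0.000767). The anion exchanger gene SLC26A6 was called in both lines, at 0.30 in SK-Hep1 (adjusted p = 0.0306) and, in the other direction, at -0.26 in Huh7 (0.0272). Its SK-Hep1 call did not hold without control replicate 1 (0.131), control replicate 2 (0.0957), knockdown replicate 11 (0.108) or either Huh7 control (0.054). It was also lost with each line fitted alone (0.0813), with array weights (0.076) and with the probes averaged (0.203, difference 0.16). The Huh7 call of SLC26A6 did not hold without control replicate 1 (0.153), control replicate 2 (0.0783) or knockdown replicate 3 (0.188), or with the probes averaged (0.0717), and its 3 probes ran from -0.04 to 0.30 in SK-Hep1. SGK1, an aldosterone-induced kinase upstream of sodium transport, differed between the lines by -0.55 (adjusted p = 0.00803). It was at -0.19 in SK-Hep1 and at 0.36 in Huh7 (adjusted p = 0.00874, and 0.0827 without control replicate 2 or 0.0504 without knockdown replicate 3).

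Of the other genes for enzymes and receptors of the renin-angiotensin and kinin systems, 19 of 31 listed were tested. None was called in SK-Hep1 (0 of 19 by limma, 1 at an unadjusted p under 0.05), and 3 rose and 7 fell in Huh7 (52.6%, against 38% of all genes). The medians were 0.00 in SK-Hep1 and -0.11 in Huh7, against -0.01 and 0.00 over all genes. KNG1, which encodes kininogen, the precursor of bradykinin, fell most of this list in Huh7, from 8.87 and 8.81 to 7.34 and 7.35, a difference of -1.49 ± 0.0659 (adjusted p = 5.19e-07). In SK-Hep1 all 4 arrays of KNG1 lay between 7.98 and 8.06. The kinin-inactivating carboxypeptidase subunit gene CPN2 fell by 0.43 in Huh7 (adjusted p = 0.00218), and CPB2, a plasma carboxypeptidase gene, fell by 0.34 (0.0032). The peptidase genes THOP1 and DPP3, whose products cleave angiotensin peptides, rose by 0.48 and 0.43 (adjusted p = 0.00141 and 0.000585). The Huh7 count of this list, 10 with all arrays, was lower without control replicate 1 or knockdown replicate 4. The count over all genes fell in these fits too, so the fall is not particular to this list. The share of the list was not set against that of all genes there.

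Among mineralocorticoid and epithelial sodium channel genes, 12 of 24 listed were tested. In SK-Hep1 2 rose and 2 fell (33.3%, against 16.2%), and in Huh7 2 rose and 5 fell (58.3%, against 38%), with medians of 0.02 and -0.05. SCNN1A, the alpha subunit of the epithelial sodium channel, fell in Huh7 from 7.99 and 7.98 to 7.04 and 6.95, by 0.99 (SE 0.111, adjusted p = 9.72e-05). HSD11B2, which inactivates cortisol and so protects the mineralocorticoid receptor, fell by 0.73 (adjusted p = 0.000404). The knockdown arrays of SCNN1A lay near the background level of 6.97, which may limit the size its fall can show. With line means nearly equal, the values do not tell whether the Huh7 signal reached a floor. TSC22D3, a glucocorticoid-induced gene, fell in both lines, by 0.53 (adjusted p = 0.0138, SK-Hep1) and 0.65 (0.0018, Huh7), with -0.67 and -0.74 on its other probe. The SK-Hep1 call of TSC22D3 did not hold without control replicate 1 (0.0704) or control replicate 2 (0.0814).

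FURIN, a protease that activates the sodium channel, was called in both lines, at 0.45 in SK-Hep1 (limma adjusted p = 0.0162) and 0.35 in Huh7 (0.0235). No difference between the lines was detected for FURIN (adjusted p = 0.645). Its SK-Hep1 call was lost without control replicate 2 or knockdown replicate 11. Its Huh7 call was lost without control replicate 1, knockdown replicate 3 or knockdown replicate 4. The ubiquitin ligase gene NEDD4 rose by 0.38 in SK-Hep1 (adjusted p = 0.00792), although its other probe was at 0.10. The glucocorticoid receptor gene NR3C1 was at -0.38 in SK-Hep1 (adjusted p = 0.0219). That call was lost without control replicate 2 or knockdown replicate 12, and with array weights (0.0589). ATP1B1, a subunit of the sodium pump, was at -0.36 in Huh7 (adjusted p = 0.024), a call that was lost without any 1 of the 4 Huh7 arrays (0.0563 to 0.149). The SK-Hep1 count of this list, 4 with all arrays, was lower without control replicate 2. Its Huh7 count, 7 with all arrays, was lower without any 1 of the 4 Huh7 arrays. The counts over all genes fell in these fits too, so the fall is not particular to this list. The shares of the list were not set against those of all genes there.

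Among signalling genes downstream of the type 1 receptor, 35 of 43 listed were tested, with 8 higher and 2 lower in SK-Hep1 (28.6%, against 16.2% of all genes) and 3 higher and 8 lower in Huh7 (31.4%, against 38%). The medians were 0.10 and 0.01, against -0.01 and 0.00 over all genes. RGS2, which shuts off the G protein Gq behind this receptor, rose in SK-Hep1 from 10.32 and 10.49 to 11.46 and 11.24 (0.94 ± 0.093, adjusted p = 0.000163) and was at -0.22 in Huh7. CYBA, a subunit of the NADPH oxidases, rose by 0.56 (adjusted p = 0.00075), and GNAQ, the Gq alpha subunit gene itself, by 0.53 (adjusted p = 0.00577).

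GRK5 encodes a kinase that desensitises such receptors. Its SK-Hep1 controls read 9.61 and 9.86 and the knockdown arrays 10.15 and 10.11. Its Huh7 controls read 10.46 and 10.39 and the knockdown arrays 9.44 and 9.49. GRK5 was therefore called in opposite directions, at 0.40 in SK-Hep1 (adjusted p = 0.0121, and 0.0838 without control replicate 1) and -0.96 in Huh7 (adjusted p = 2.44e-05). The lines differed by 1.35 (adjusted p = 4.46e-05), and on the other GRK5 probe the values were 0.27 and -0.48. Among the protein kinase C genes PRKCE fell by 0.64 in SK-Hep1 (adjusted p = 0.000754) and was at -0.30 in Huh7 (0.0153). PRKCA fell by 0.58 in Huh7 (0.000315). PRKCD was called in opposite directions, at 0.35 in SK-Hep1 (0.0138) and -0.34 in Huh7 (0.00652). Both PRKCD calls and the Huh7 call of PRKCE were lost in some fits with 1 array left out. The SK-Hep1 call of PRKCD was also lost with each line fitted alone (0.053). ITPR1, a calcium release channel of the endoplasmic reticulum, fell in both lines, by 0.37 and 0.63 (adjusted p = 0.00589 and 0.000101), and ARHGEF12, an activator of RhoA, fell by 0.41 in Huh7 (0.00272). The Huh7 count of this list, 11 with all arrays, was lower without control replicate 1, control replicate 2 or knockdown replicate 4. The count over all genes fell in these fits too.

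**Figure D4:**
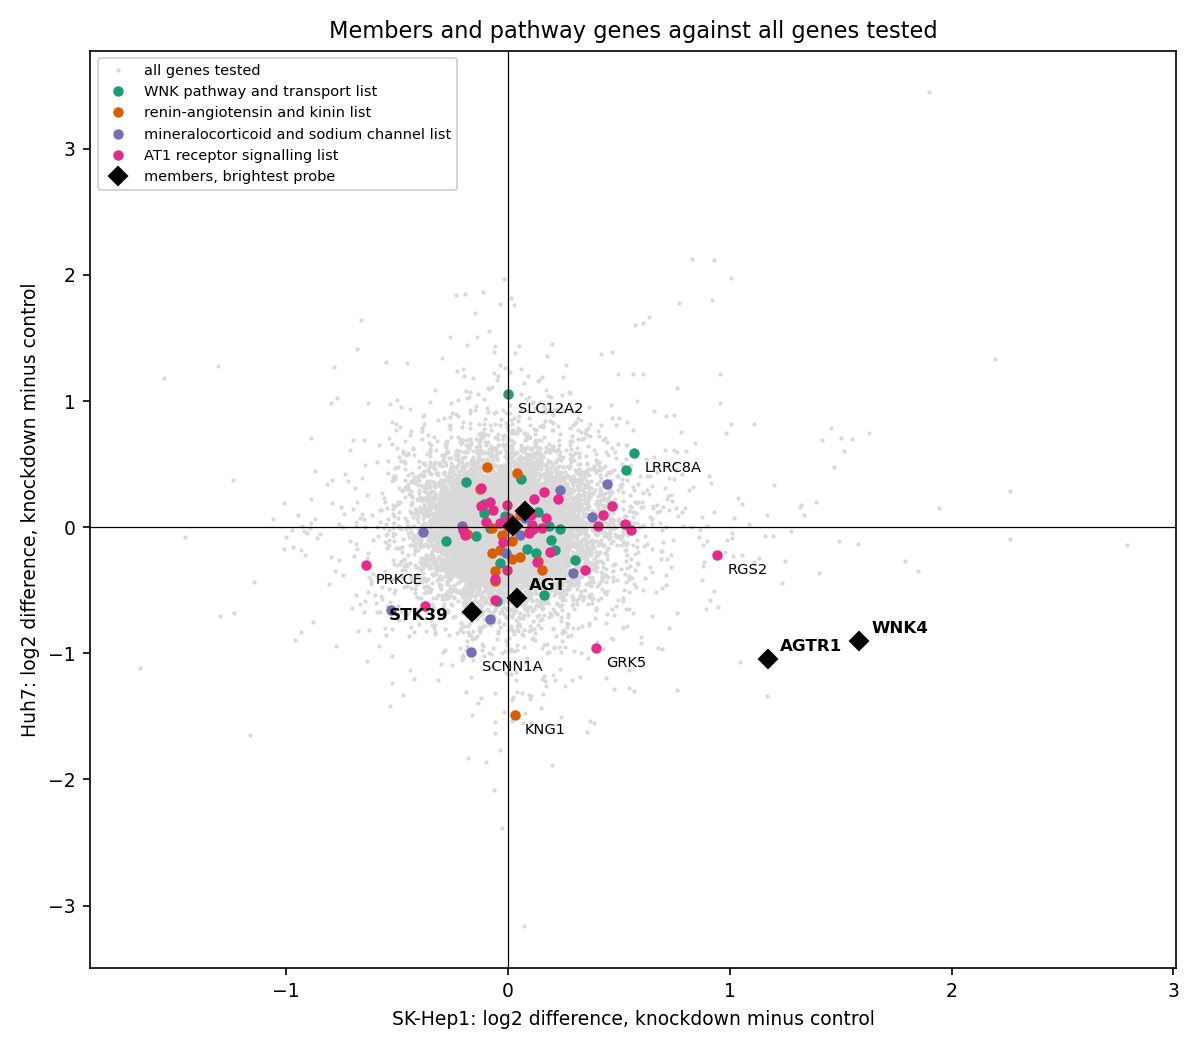
Log2 difference, knockdown minus control, in SK-Hep1 (horizontal) and Huh7 (vertical) for the 12728 genes tested (grey), the 4 pathway lists (coloured) and the 6 members above background (black diamonds). WNK4 and AGTR1 lie at the lower right, with SK-Hep1 values of 1.58 and 1.17 and Huh7 values of -0.90 and -1.04, and GRK5 and RGS2 lie nearer the centre on the same side.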

How the data were processed

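The authors' deposited processed table holds log2 intensities for 47319 Illumina probes on 8 arrays, hybridised with cRNA from 0.55 µg of total RNA per the labels' protocols. GenomeStudio 2011.1 was used, per the submitters' processing notes. The sources used here do not give the normalization, the background treatment or why line levels are equal. All array medians were 6.93, so no further normalization was applied. A table of unnormalized signals was not used, because its 16 value columns match no label. Probes were named from the platform annotation, in which 30110 had 1 symbol, 8 several and 17201 none.

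Differences were fitted with limma 3.58.1 in R 4.3.3 (lmFit, then eBayes), with a mean for each of 4 groups and 4 residual degrees of freedom left. Tests were two-sided and adjusted by Benjamini-Hochberg over 12728 genes. The script was tested on simulated data. The members, the 4 gene lists and the background filter were chosen with earlier results of these data known. The text names every member, up to 4 called genes per list and line with the largest differences, up to 4 per list chosen for the difference between lines, and the 5 genes nearest to WNK4 and to AGTR1. For every list gene so named, the difference between lines is given where it passed. The number of arrays limits the precision. Alternatives covered left-out arrays, weights, normalization, filter, probe choice and spread model.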

Additional observations from a re-analysis of the deposited data

Results flagged for a closer look

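For several genes the difference between knockdown and control was not the same in the 2 lines. The labels name GFP only for the Huh7 controls, and the knockdown titles carry different numbers. SMARCB1 itself was at -1.16 in SK-Hep1 and -1.65 in Huh7. The line cannot be told apart from these features of the design. WNK4 (2.48, SK-Hep1 difference minus Huh7 difference), AGTR1 (2.22) and AGT (0.60) were noted because every knockdown array lay above the controls in SK-Hep1 and below them in Huh7. The members were chosen with this difference known. It was not tested for these 3 genes in data independent of that choice, so no p-value is given. For AGT the SK-Hep1 side was only 0.04.

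In the pathway lists the difference between lines was tested in the same fit, with limma adjusted p-values, and SK-Hep1 minus Huh7 is given. These lists were also chosen with earlier results of these data known. Only genes among the 4 largest calls of a list in a line or for this difference are named, so the lists are partial, with 5 of 6 calls for the WNK pathway, 6 of 7 for the renin-angiotensin and kinin list, 3 of 3 for the mineralocorticoid list and 8 of 13 for AT1 receptor signalling. The WNK pathway genes noted were SLC12A2 (-1.06, adjusted p = 9.59e-05), WNK2 (0.70, 0.00183), SLC26A6 (0.56, 0.00495), SGK1 (-0.55, 0.00803) and PPP1R1A (0.54, 0.00278). In the renin-angiotensin and kinin list they were KNG1 (1.52, adjusted p = 5.83e-06), THOP1 (-0.57, 0.00512), CPB2 (0.49, 0.00401), DPP3 (-0.39, 0.00948), the prolyl peptidase gene PREP (-0.43, 0.025) and CPN2 (0.37, 0.0307). In the mineralocorticoid list they were SCNN1A (0.83, adjusted p = 0.00332), ATP1B1 (0.66, 0.0101) and HSD11B2 (0.65, 0.0079).

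In the AT1 receptor signalling list they were GRK5 (1.35, adjusted p = 4.46e-05), RGS2 (1.16, 0.000189), the protein kinase C gene PRKCD (0.69, 0.00131), CYBA (0.58, 0.00209), PRKCA (0.52, 0.0061), GNAQ (0.50, 0.0202), ARHGEF12 (0.35, 0.0388) and PRKCE (-0.34, 0.0482). The calls of PREP (adjusted p up to 0.111), CPN2 (0.111), GNAQ (0.0912), ARHGEF12 (0.125) and PRKCE (0.19) were each lost when single arrays were left out, for at least 5 of the 8 arrays. The call of PRKCE was also lost with array weights (0.0518), without the filter (0.0718) and with the trend and robust setting (0.055), and that of ARHGEF12 without the filter (0.0586).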

How the results depend on the processing

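No paired analysis was possible because control and knockdown arrays of a line share no replicate numbers. With 1 array left out, the number of genes called ran from 910 to 2411 in SK-Hep1 (2066 with all arrays), from 2871 to 5605 in Huh7 (4835) and from 2521 to 4477 for the difference between lines (3885). Counts moved by over 1.5 times in SK-Hep1 without control replicate 1 (910) or 2 (1197), in Huh7 without control replicate 1 (2871) or 2 (2941) or knockdown replicate 3 (3132) or 4 (3040), and for the difference without Huh7 control replicate 1 (2549) or 2 (2521). List counts in SK-Hep1 and Huh7 ran from 2 to 4 and 6 to 11 for the WNK pathway, from 0 to 0 and 5 to 12 for the renin-angiotensin list, from 1 to 5 and 3 to 7 for the mineralocorticoid list, and from 7 to 11 and 6 to 13 for AT1 receptor signalling. WNK4 ran from 1.37 to 1.80 in SK-Hep1 and from -0.97 to -0.84 in Huh7, and AGTR1 from 0.97 to 1.37 and from -1.08 to -1.004. The SK-Hep1 count was 1097 with each line fitted alone and 1183 with array weights. The WNK pathway list had 6 calls in SK-Hep1, against 3, with the 99th percentile of the background probes as filter, which left 10268 genes. This count was not set against the share of all genes called under that filter. The other normalizations, filters, probe choice and spread model moved none of these counts by over 1.5 times, and no called difference reversed in any setting. Signal near background may limit ACE, WNK2, PPP1R1A and SCNN1A, although the near-equal line means hide whether a line was at its floor. Those means also limit what can be said of SK-Hep1 for genes such as AGT and KNG1.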
